A study of Mus musculus with 2 samples.

Results

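The 10 genes described here are 8 genes of secretory cells of the airway (Scgb1a1, Scgb3a2, Cyp2f2, Scgb3a1, Bpifa1, Muc5b, Reg3g and Ltf), the ciliated cell gene Foxj1 and the alveolar gene Sftpc. They were chosen by their counts in these same heart libraries, matched by gene symbol, and are 10 of the 55536 Ensembl genes measured. The contrast between the libraries is what selected them, so it is described below and not tested. The study sequenced total RNA of the heart at 18 to 20 months of age in female mice of the hybrid strain B6CASTF1/J, whose parents are C57BL/6J and CAST/EiJ, and the labels give no treatment. Biological replicate 2 and biological replicate 1 are the only libraries, each from 300 ng of RNA with ERCC spike-in RNAs. They come from separate biosamples that carry the same donor entry, so it was not settled here whether they are separate animals.

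The lining of the conducting airways is a mixture of secretory, ciliated and basal cells. Club cells secrete small proteins called secretoglobins and metabolise foreign compounds with cytochrome P450 enzymes, goblet cells secrete gel-forming mucins, and submucosal glands add antibacterial proteins. Ciliated cells, whose programme depends on the transcription factor Foxj1, move the mucus, and in the gas-exchanging alveoli type 2 cells make surfactant, of which Sftpc is the most specific protein. None of these cells is a resident type of the heart muscle.

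Expected counts, the estimated number of reads per gene, summed to 36926429 in replicate 2 and 35897521 in replicate 1. ERCC RNAs took 0.515% of the counts in replicate 2 and 0.492% in replicate 1. A gene at 0 counts was allowed 3, which is 0.0812 CPM (counts scaled to the library total) in replicate 2 and 0.0836 CPM in replicate 1. The exact Poisson 95% interval of a count of 0 reaches 3.69, so 3 is a setting and not that bound. Ratios below given as at least a value use these 3 counts and leave out counting error. The 12 cardiomyocyte markers were all detected in both libraries, summed to 45068 TPM (transcript abundance, a level per transcript length) in replicate 2 and 47664 TPM in replicate 1, and held 0 genes that differed 4-fold. Intervals of counts and of ratios below are 95% intervals that cover counting error only, and credibility intervals are those deposited for the posterior TPM.

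Most of the secretory genes, but not all, had counts in 1 library only. With 10 or more counts taken as detection, 8 of the 8 secretory genes were detected in replicate 2 and 1 of 8, Cyp2f2, in replicate 1. In replicate 1, 5 of the 8 had 0 counts, while Ltf had 1, Scgb3a1 had 5 and Cyp2f2 had 25. The 8 genes together had 7665 counts in replicate 2, which is 0.0208% of that library, and 31 counts in replicate 1. Bpifa1 alone supplied 60.7% of the sum in replicate 2. Per length the 8 genes summed to 306.61 TPM in replicate 2, against 1.05 TPM in replicate 1.

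**Figure D1:**
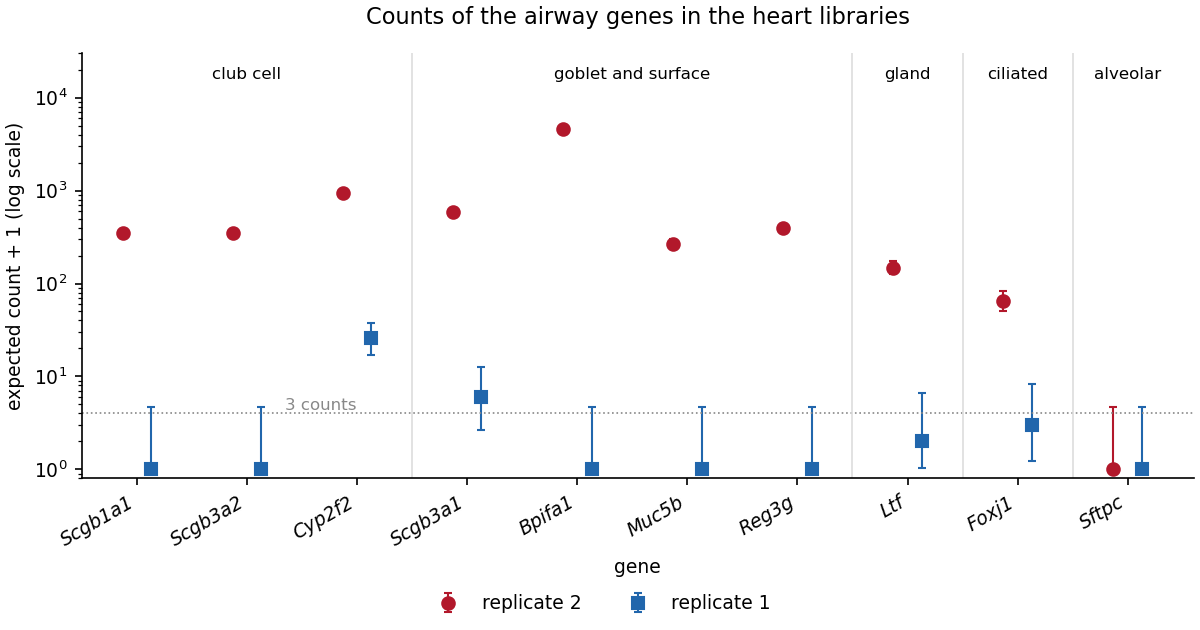
Expected count plus 1 on a log axis for each of the 10 genes, grouped by the airway cell they are known from, with replicate 2 as circles left of replicate 1 as squares. Bars are exact Poisson 95% intervals and the dotted line marks 3 counts; the 8 secretory genes lie between 147 and 4650 counts in replicate 2 and between 0 and 25 in replicate 1, and Sftpc is at 0 in both.

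The 3 club cell genes had 345 to 931 counts in replicate 2, and in replicate 1 Cyp2f2 was the only one with any. Scgb1a1, the secretoglobin known as the club cell secretory protein (mm10 chromosome 19, 9083636 to 9087958, minus strand), had 347 counts in replicate 2, with an interval of 311 to 386, and 0 counts in replicate 1. With replicate 1 set to 3 counts per library it was at least 112-fold higher in replicate 2 in CPM from the RSEM-layout table, and at least 45.8-fold from the kallisto-layout table, the other deposited estimate. Its level was 31.28 TPM in replicate 2, against 0 TPM in replicate 1. Scgb3a2, a secretoglobin of the bronchi and bronchioles (chromosome 18, 43764289 to 43767399, plus strand), was likewise absent from the counts of replicate 1. It had 345 counts in replicate 2 and 0 in replicate 1, was at least 112-fold higher in replicate 2 (at least 63.0-fold from the kallisto-layout table), and stood at 25.96 TPM in replicate 2. Cyp2f2, the club cell cytochrome P450 that activates naphthalene (chromosome 7, 27119909 to 27133660, plus strand), had 931 counts in replicate 2 and 25 in replicate 1. It was 36.2-fold higher in replicate 2 (interval 24.4 to 56.2), with 18.41 TPM in replicate 2, against 0.54 TPM in replicate 1. Cyp2f2 overlaps the antisense gene Gm15883, which had 0 counts in both libraries. In tissue RNA, fewer cells of a type and less RNA per cell cannot be told apart.

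The genes grouped here under goblet cells and the airway surface held the largest single count of the 10. These groups are not exclusive. In the marker lists used further on, Bpifa1 is a gland marker, Muc5b a goblet and gland marker, and Scgb3a1 a club cell marker. Bpifa1, a secreted lipid-binding defence protein of the upper airway (chromosome 2, 154142880 to 154149219, plus strand), had 4650 counts in replicate 2, with an interval of 4517 to 4786, and 0 in replicate 1. Its level of 157.08 TPM placed it at rank 387 of 22028 protein-coding genes of replicate 2, and it was at least 1507-fold higher there than in replicate 1. Scgb3a1, a secretoglobin of airway secretory cells (chromosome 11, 49663610 to 49665118, plus strand), was low but above 0 in replicate 1. It had 582 counts in replicate 2 and 5 in replicate 1, a ratio of 113-fold (48.2 to 350), at 49.47 TPM in replicate 2, against 0.45 TPM in replicate 1. Muc5b, a gel-forming mucin (chromosome 7, 141839070 to 141873084, plus strand), had 265 counts in replicate 2 and 0 in replicate 1, at least 85.9-fold higher in replicate 2. Because its transcript has 14964 nt, those counts came to only 0.61 TPM in replicate 2. Reg3g, an antibacterial lectin of mucosal surfaces (chromosome 6, 78466269 to 78468872, minus strand), had 398 counts in replicate 2 and 0 in replicate 1. It was at least 129-fold higher in replicate 2, where it stood at 19.97 TPM.

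The gland gene Ltf encodes lactotransferrin, an iron-binding antibacterial protein (chromosome 9, 111019271 to 111042767, plus strand). It had 147 counts in replicate 2 and 1 count in replicate 1, a ratio of 143-fold whose interval, 25.3 to 5682, is wide because of the single count. With replicate 1 set to 3 counts, as for the genes at 0, it was 47.6-fold. Its level was 3.83 TPM in replicate 2, against 0.06 TPM in replicate 1. The deposited posterior mean was closer between the libraries, at 5.43 TPM (credibility interval 3.75 to 7.20) in replicate 2 and 1.3 TPM (0.538 to 2.15) in replicate 1. Lactotransferrin is also a granule protein of neutrophils and a product of uterus and mammary gland, so the markers of those were counted beside it. Of 7 neutrophil granule genes with 10 or more counts in either library, 1 was 4-fold higher in replicate 2, which was Ltf itself, and 2 were 4-fold lower. S100a9 had 2 counts in replicate 2 and 27 in replicate 1, S100a8 had 0 in replicate 2 and 16 in replicate 1, and Camp, which encodes a granule peptide, had 0 in both. Of the milk proteins, Csn2 had 1 count in replicate 2 and 0 in replicate 1, and Wap had 0 in both.

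Promoters are shown because these genes were high in the same library. A GRCm38.p6 promoter placed by the RefSeq start was available here for 5 of the 10 genes (Bpifa1, Scgb3a1, Cyp2f2, Reg3g and Ltf). In each of the 5, all 250 bases before the RefSeq start were searched. They are printed for the most abundant of the 10 genes and for the only ones with 5 or more counts in both libraries, and the printed stretch ends early in Cyp2f2, whose GENCODE start lies upstream of the RefSeq start. The stretches are chr2:154142630-154142879 for Bpifa1, chr11:49663345-49663594 for Scgb3a1 and chr7:27119705-27119908 for Cyp2f2, all on the plus strand. Capitals mark matches to the motifs described after the sequences.
Bpifa1: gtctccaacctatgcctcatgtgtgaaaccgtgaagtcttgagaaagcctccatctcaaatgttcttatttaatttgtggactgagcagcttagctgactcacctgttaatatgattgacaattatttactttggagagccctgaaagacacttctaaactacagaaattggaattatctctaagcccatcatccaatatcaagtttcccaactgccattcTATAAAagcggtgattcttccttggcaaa
Scgb3a1: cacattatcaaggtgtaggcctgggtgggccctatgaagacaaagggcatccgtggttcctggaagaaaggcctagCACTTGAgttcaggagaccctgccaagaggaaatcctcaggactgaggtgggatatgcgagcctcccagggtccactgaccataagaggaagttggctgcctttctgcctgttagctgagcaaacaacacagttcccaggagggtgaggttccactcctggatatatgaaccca
Cyp2f2: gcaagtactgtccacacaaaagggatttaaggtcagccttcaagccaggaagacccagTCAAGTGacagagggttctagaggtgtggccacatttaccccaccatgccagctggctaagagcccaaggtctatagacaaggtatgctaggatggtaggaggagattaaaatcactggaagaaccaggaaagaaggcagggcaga
Both strands of the 5 promoters were searched for a TATA box written TATAAA, a forkhead core written TGTTTAC, an NKX2 core written TNAAGTG and a C/EBP core written TTGCNNAA, and no match overlapped another. Positions are in bases relative to the RefSeq start. In Bpifa1 the TATA box lay at -29 to -24. Scgb3a1 held the NKX2 core on the opposite strand, as CACTTGA, at -174 to -168, and Cyp2f2 held it on the gene strand, as TCAAGTG, at -192 to -186. Reg3g had TATAAA at -27 to -22 and again on the opposite strand at -161 to -156, and Ltf had the C/EBP core on the opposite strand at -75 to -68. Of 32851 RefSeq mouse promoters of the same length, 12.4% held TATAAA, 10.1% the NKX2 core, 9.56% the C/EBP core and 3.17% the forkhead core. No motif was in all 5 promoters.

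Foxj1, the regulator of motile cilia (chromosome 11, 116330704 to 116335399, minus strand), was also higher in replicate 2, at a lower level than most of the secretory genes. It had 64 counts in replicate 2, with an interval of 49.3 to 81.7, and 2 in replicate 1, a ratio of 31.1-fold (8.27 to 262), or 20.7-fold with replicate 1 set to 3 counts. Its level was 0.86 TPM in replicate 2, against 0.03 TPM in replicate 1. Sftpc, the hydrophobic surfactant protein of alveolar type 2 cells (chromosome 14, 70520949 to 70524081, minus strand), had 0 counts in both libraries and in every table. Set to 3 counts, Sftpc would have stood at 0.158 TPM in replicate 2, against 0.167 TPM in replicate 1.

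Within replicate 2 the secretory genes were compared with Foxj1 and Sftpc per length, on the TPM scale. In order of TPM, Bpifa1 was followed by Scgb3a1, Scgb1a1, Scgb3a2, Reg3g, Cyp2f2, Ltf, Foxj1 and Muc5b. The deposited credibility intervals overlapped for the neighbours Scgb1a1 and Scgb3a2 (27.52 to 33.92 and 22.94 to 28.31 TPM), Reg3g and Cyp2f2 (17.67 to 21.52 and 16.95 to 20.32 TPM), and Foxj1 and Muc5b (0.651 to 1.07 and 0.523 to 0.666 TPM). The other neighbours were separate. Bpifa1 was 183 times the level of Foxj1, Scgb3a1 57.5 times, Scgb1a1 36.4 times and Scgb3a2 30.2 times. Reg3g was at 23.2 times, Cyp2f2 at 21.4 times and Ltf at 4.45 times, while Muc5b was at 0.709 times the Foxj1 level. Thus 7 of the 8 secretory genes were above Foxj1 in TPM. In counts, which are not scaled to length, all 8 were above it and the ratios were otherwise, at 72.7 for Bpifa1, 14.5 for Cyp2f2, 9.09 for Scgb3a1, 5.42 for Scgb1a1, 5.39 for Scgb3a2 and 4.14 for Muc5b. With Sftpc set to 3 counts, the TPM ratio to Sftpc was at least 993 for Bpifa1, at least 198 for Scgb1a1, at least 24.2 for Ltf and at least 3.86 for Muc5b. In replicate 1 no such order can be read, since 6 of the 8 secretory genes and both comparison genes were under 3 counts.

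**Figure D2:**
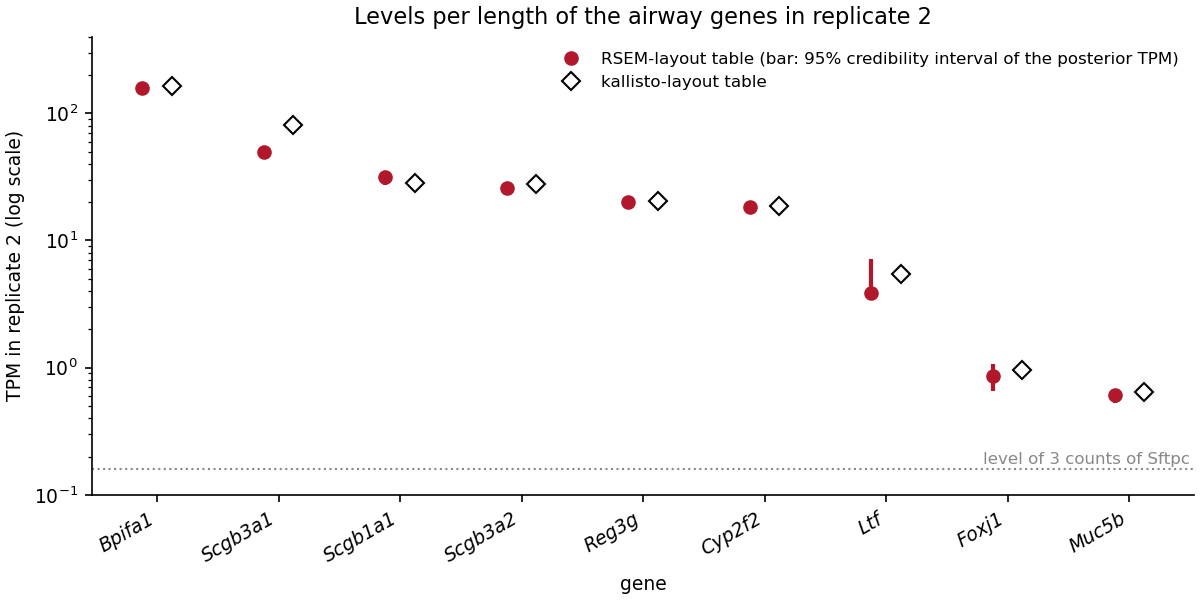
TPM in replicate 2 on a log axis for the 9 genes with counts, from the highest to the lowest. The RSEM-layout value is a filled circle and the kallisto-layout value an open diamond. The bar is the deposited 95% credibility interval of the posterior TPM, so the circle need not lie at its centre. Bpifa1 leads at 157.08 TPM, Foxj1 and Muc5b are lowest at 0.86 and 0.61 TPM, and the dotted line is the 0.158 TPM that 3 counts of Sftpc would give.

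Cyp2f2 was the only secretory gene detected in both libraries, so the others are given per count of Cyp2f2. For each count of Cyp2f2 there were 4.99 counts of Bpifa1 in replicate 2, and at most 0.12 in replicate 1 with Bpifa1 set to 3 counts. The lower end of the interval of the 25 Cyp2f2 counts in replicate 1, 16.2, would make that bound 0.185. The kallisto-layout table gave 4.45 in replicate 2 and at most 0.115 in replicate 1. Scgb1a1 stood at 0.373 in replicate 2 and at most 0.12 in replicate 1, but in the kallisto-layout table at 0.16 in replicate 2 and at most 0.115 in replicate 1, which is no clear difference. Ltf, at 0.158 in replicate 2, was likewise near its bound of 0.12 in replicate 1. Scgb3a1 stood at 0.625 in replicate 2 and 0.2 in replicate 1, the latter from 5 counts of Scgb3a1. The intervals of the fold of Scgb3a1 and of Cyp2f2 overlap, which does not decide whether the proportion differed. Against the bound of 0.12 in replicate 1, Reg3g stood at 0.427 in replicate 2, Scgb3a2 at 0.371 and Muc5b at 0.285. In the kallisto-layout table these were 0.324, 0.219 and 0.324, against at most 0.115. The difference was largest for Bpifa1. The genes were selected on this contrast, and none of these differences was tested.

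Against all genes, a 4-fold difference was uncommon. A gene was called where CPM differed 4-fold or more, with counts under 3 set to 3, among the 16379 genes with 10 or more counts in the higher library. All 8 secretory genes and Foxj1 were 4-fold higher in replicate 2, as were 2.77% of all genes tested (454), whereas 0.342% (56) were 4-fold lower there. Of the 10 genes, 9 passed the minimum, 8 of them only through replicate 2, and Sftpc did not pass. With 10 or more counts in replicate 2 and under 10 in replicate 1, 7 of the 8 secretory genes and Foxj1 were found, beside 6.33% of all genes tested (1037). The median log2 ratio of CPM over all genes tested was 0.08. Since the 10 genes were selected on this contrast, nothing is read from their share.

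Other genes of the same cells were counted from marker lists. A gene at 0 in replicate 1 needed 13 counts in replicate 2 to be called. List genes that passed the minimum only through replicate 2 were bound to differ to some degree, so the detected numbers are given with the calls. The shares over all genes tested apply beside every list: 2.77% were 4-fold higher in replicate 2, and 6.33% reached 10 counts in replicate 2 only. Of 18 club cell markers, 15 were detected in replicate 2 and 9 in replicate 1. Without the genes already described, 5 of 11 tested were 4-fold higher in replicate 2 and 0 lower. Cyp2a5, a cytochrome P450, had 349.56 counts in replicate 2 and 0 in replicate 1, at least 113-fold higher; its near-copy Cyp2a4 had 3.44 counts in replicate 2, so reads may be split between them. The carbonyl reductase Cbr2 had 814 counts in replicate 2 and 143 in replicate 1 (5.53-fold) and haptoglobin, Hp, 369 in replicate 2 and 38 in replicate 1 (9.44-fold). The potassium channel Kcnj16 had 15 in replicate 2 and 3 in replicate 1 (4.86-fold, but 2.89-fold from the kallisto-layout table). Gsto1, a glutathione transferase, had 2339 counts in replicate 2 and 2126 in replicate 1, so not every gene of the list was apart. Upk3a had 0 in both.

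Goblet and gland markers were mixed. Of 12 goblet cell markers, 6 were detected in replicate 2 and 2 in replicate 1, and without Muc5b 2 of 5 tested were 4-fold higher in replicate 2. Bpifb1, a relative of Bpifa1, had 174 counts in replicate 2 and 3 in replicate 1 (56.4-fold, 19.0 to 276). The other called goblet gene was Fcgbp, a mucus protein, with 30.94 counts in replicate 2 and 0 in replicate 1. Muc5ac, the other large airway gel-forming mucin, and Spdef, the transcription factor of goblet cells, had 3 counts each in replicate 2 and 0 in replicate 1, and Tff2 had 0 in both. Of 15 gland markers matched, 7 were detected in replicate 2 and 2 in replicate 1. Without Bpifa1, Ltf and Muc5b, 2 of 4 tested were 4-fold higher in replicate 2, Bpifb1 and Dmbt1. Dmbt1, a mucosal scavenger protein, had 97 counts in replicate 2 and 0 in replicate 1, while Slc12a2, an ion cotransporter of gland cells, had 1110 in replicate 2 and 1061 in replicate 1. Pip, Wfdc18, Dcpp1, Dcpp2 and Dcpp3 were at 0 in both.

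More ciliated cell markers were detected in replicate 2. Of 20, 14 were detected in replicate 2 and 2 in replicate 1, and without Foxj1 6 of 13 tested were 4-fold higher in replicate 2 and 0 lower. Of these, Cdhr3, Ccdc39 and Dnaic2 were near the threshold, at 4.05-fold, 4.21-fold and 4.86-fold. In the kallisto-layout table they fell below it, at 3.14-fold, 3.57-fold and 3.57-fold. Ccdc153 went the other way, at 3.56-fold and 4.12-fold in the kallisto-layout table. Dnah5, a dynein heavy chain of the ciliary outer arm, had 108 counts in replicate 2 and 1 in replicate 1 (105-fold, 18.4 to 4185, or 35-fold with replicate 1 set to 3 counts). The dynein chains Dnah9 and Dnah11 had 50 and 26 counts in replicate 2, against 2 and 0 in replicate 1. Tppp3, a tubulin-binding protein that led the list in TPM, had 448 counts in replicate 2 and 379 in replicate 1. Mcidas, which starts the programme of multiciliated cells, had 0 in both. Basal cell markers were mixed. The keratin gene Krt5 had 37 counts in replicate 2 and 0 in replicate 1, and Krt15 had 25 in replicate 2 and 0 in replicate 1. These and the water channel Aqp3 were the 3 of 7 tested basal markers that were 4-fold higher. Krt17 had 5 counts in replicate 2 and 1 in replicate 1, and Krt14 had 2 in replicate 2 and 1 in replicate 1. The other tested markers were Trp63 at 2.19-fold, Pdpn at 1.14-fold, Icam1 at 0.895-fold and Ngfr at 0.868-fold.

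Alveolar markers were counted in the same way. Of 12 type 2 cell markers, 6 were detected in replicate 2 and 5 in replicate 1, and 2 of 6 tested were 4-fold higher in replicate 2, the surfactant protein Sftpa1 and the protease Napsa. Sftpa1 had 113 counts in replicate 2 and 1 in replicate 1 (110-fold, 19.3 to 4377, or 36.6-fold with replicate 1 set to 3 counts). The other surfactant proteins were near 0, with Sftpd at 9 counts in replicate 2 and 0 in replicate 1, and Sftpb at 2 in replicate 2 and 0 in replicate 1. Of 9 type 1 cell markers tested, 1 was 4-fold higher in replicate 2. It was the water channel Aqp5, with 26 counts in replicate 2 and 0 in replicate 1, which glands express as well. Ager, the marker most used for type 1 cells, had 3 counts in replicate 2 and 1 in replicate 1. Hopx, which heart muscle also expresses, led that list with 162 TPM in replicate 2, against 123.37 TPM in replicate 1.

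Epithelial genes shared by many organs were also more often found in replicate 2. Of 15 general epithelial markers, 14 were detected in replicate 2 and 6 in replicate 1. Of 14 tested, 5 were 4-fold higher in replicate 2, beside 2.77% of all genes tested. These were Wfdc2, Cdh1, Epcam, Cldn3 and Esrp1. The adhesion proteins Cdh1 and Epcam had 70 and 21 counts in replicate 2, against 3 and 1 in replicate 1. Wfdc2, a secreted protein of airway and other epithelia, had 81 counts in replicate 2 and 7 in replicate 1, while the keratin gene Krt18 had 56 in replicate 2 and 55 in replicate 1. Of 10 airway transcription factors, 7 were detected in replicate 2 and 1 in replicate 1. Without Foxj1, 2 of 6 tested were 4-fold higher in replicate 2, Ehf and Foxa1. Ehf had 54 counts in replicate 2 and 0 in replicate 1, Foxa1 21 in replicate 2 and 0 in replicate 1, and Nkx2-1, which marks lung and thyroid epithelium, 6 in replicate 2 and 0 in replicate 1. Pigr, the receptor that carries IgA across epithelia, had 167 counts in replicate 2 and 0 in replicate 1.

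**Figure D3:**
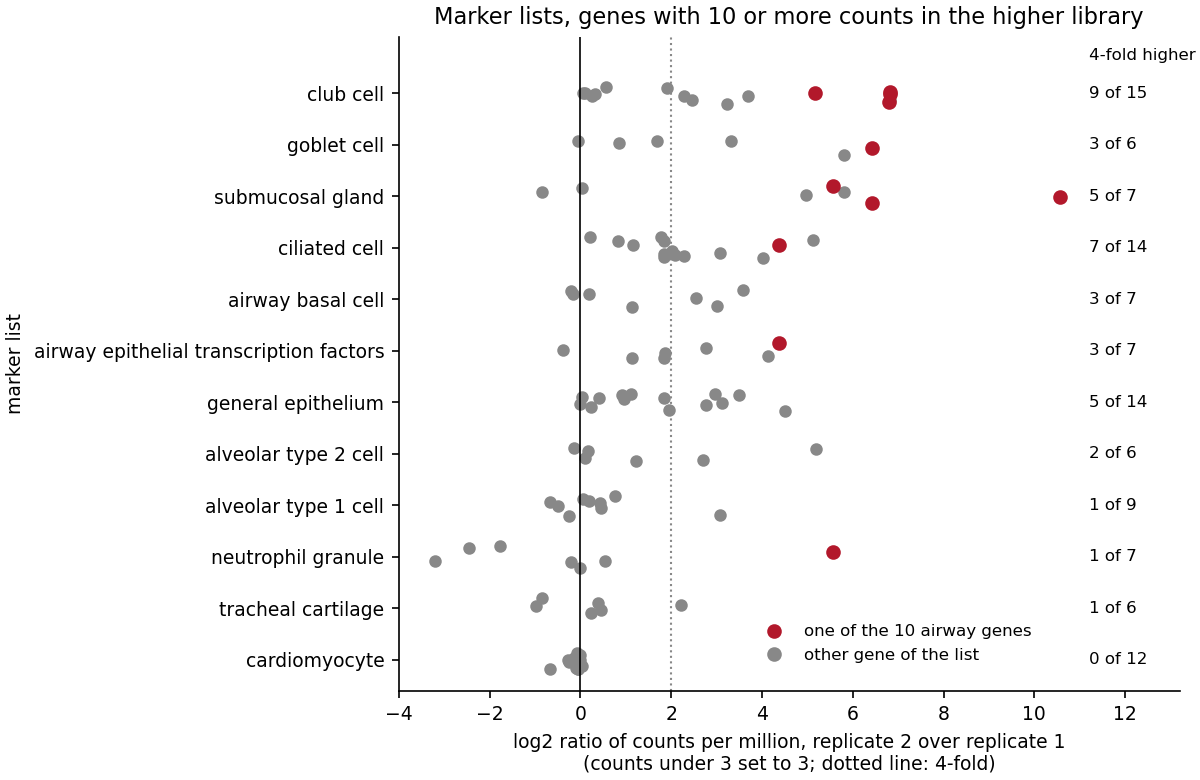
Each point is a gene of a marker list with 10 or more counts in the higher library, placed by its log2 ratio of CPM, replicate 2 over replicate 1, with counts under 3 set to 3. The dotted line is 4-fold, and red points are genes of the 10 described, which were selected on this contrast. With them 9 of 15 club cell genes and 7 of 14 ciliated cell genes are past the line. Without them it is 5 of 11 and 6 of 13. Many of these genes passed the minimum only through replicate 2. Of the cardiomyocyte genes, which were detected in both libraries, 0 of 12 are past the line.

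Markers of neighbouring tissues were counted in the same way, and their part in the result was not tested. Lymph node genes were 4-fold higher in replicate 2 in 6 of 9 tested, with a summed level of 104.56 TPM in replicate 2, against 31.31 TPM in replicate 1. Adipocyte genes were so in 9 of 11, with 637.09 TPM in replicate 2, against 116.3 TPM in replicate 1. Genes of mucosal antibodies and their transport were so in 4 of 6 (Igkc, Ighm, Jchain and Pigr), with 135.74 TPM in replicate 2, against 10.19 TPM in replicate 1. Most of that sum in replicate 2 was Igkc, at 97.72 TPM, and Ighm, at 25.74 TPM. Igha, with 105 counts in replicate 2 and 27 in replicate 1 (3.78-fold), and Mzb1 (2.71-fold) were not called. For tracheal cartilage it was 1 of 6, the matrix proteoglycan Acan, with 5.75 TPM in replicate 2, against 5.9 TPM in replicate 1. Its defining collagen, Col2a1, had 9 counts in replicate 2 and 2 in replicate 1. In the thyroid list 1 of 3 was called, the receptor Tshr, at 4.25-fold but 3.68-fold from the kallisto-layout table. Thyroglobulin, Tg, had 53 counts in replicate 2 and 57 in replicate 1, and Pax8 and Pth had 0 in both. Of the salivary genes, 0 of 1 tested was called, and Bpifa2 and Smr3a had 0 in both. In the oesophageal list 1 of 2 was called, Tgm1, and in the thymus list 1 of 2, the T cell gene Cd8b1, while Krt13 and Foxn1 had 1 and 0 counts in replicate 2 and 0 each in replicate 1. In the intestinal list 0 of 1 was called, with Reg3b, Reg3a and Reg1, relatives of Reg3g, at 0 in both. Of the neuroendocrine, tuft and ionocyte genes, 0 of 3 were called. In the uterus and mammary gland list 1 of 2 was called, which was Ltf.

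The protein-coding genes closest in pattern were taken from 11823 other protein-coding genes with 50 or more counts in replicate 2. They are the 10 with the highest ratio of replicate 2 to replicate 1, with counts under 3 set to 3. Genes at 3 counts or fewer in replicate 1 were thus ordered by their counts in replicate 2. Glycam1, a mucin of lymph node vessels, led with 725 counts in replicate 2 and 0 in replicate 1, at least 235-fold higher. Cyp2a5, Bpifb1, Pigr, Sftpa1 and Dnah5 were among them, as described. Sec14l3, of a family of lipid-binding proteins, had 173 counts in replicate 2 and 0 in replicate 1, and the macrophage scavenger receptor Marco 151 in replicate 2 and 0 in replicate 1. Elovl3, a fatty acid elongase known from brown fat and skin, had 98 in replicate 2 and 3 in replicate 1. Gm45837 had 136.39 counts in replicate 2 and 0 in replicate 1, but 1166 in replicate 2 and 818 in replicate 1 in the kallisto-layout table, so its pattern is uncertain. The likeness was measured over 2 libraries and says no more than that.

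The gene families were counted as well. Of 34 protein-coding secretoglobin genes, 30 had 0 counts in both libraries, and 4 were detected in replicate 2, the 3 described and Scgb1c1, known from the olfactory mucosa. Scgb1c1 had 134 counts in replicate 2 and 115 in replicate 1, at 12.79 TPM in replicate 2, against 11.57 TPM in replicate 1. Of 14 Bpif genes, 2 were detected in replicate 2, Bpifa1 and Bpifb1, and 0 in replicate 1, while 7 were at 0 in both libraries. Of 7 Reg genes, Reg3g alone reached 10 counts, and 5 were at 0 in both libraries. Of 12 mucin genes, 5 were detected in replicate 2 and 3 in replicate 1, led by the transmembrane mucin Muc16 with 1394 counts in replicate 2 and 722 in replicate 1. Of 15 Cyp2 genes on chromosome 7, 6 were detected in replicate 2 and 5 in replicate 1. Cyp2e1, an enzyme known from liver and fat, had 932.89 counts in replicate 2 and 116.78 in replicate 1.

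The levels came mainly from the usual protein-coding transcripts. In replicate 2 Bpifa1-201 held 99.8% of the Bpifa1 TPM, Reg3g-201 99.6%, Scgb3a2-202 97.65% and Cyp2f2-201 95.77%, in the isoform percent deposited by the authors. Scgb1a1, Muc5b and Foxj1 have 1 annotated transcript each. For Scgb3a1 the tables differed in the transcript: the RSEM-layout table gave 541.66 counts to Scgb3a1-201, whereas the kallisto-layout table gave 624 to Scgb3a1-202, so which transcript was present was not settled. Ltf was split over several short transcripts as well, and the full-length Ltf-201 held 41.14% of its TPM but 122.67 of its 147 counts. Its credibility interval in replicate 2 was the widest of the 8 secretory genes relative to the level.

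Counts of the shorter genes depended on which deposited table was read, while their TPM did so less. Scgb1a1, of 476 nt, had 141 counts in the kallisto-layout table of replicate 2 and 347 in the RSEM-layout table, a ratio of 0.406, yet 28.6 TPM in the kallisto-layout and 31.28 TPM in the RSEM-layout table. The ratio was 0.562 for Scgb3a2, 0.719 for Reg3g and 0.845 for Bpifa1, and between 0.95 and 1.08 for Cyp2f2, Ltf, Foxj1 and Muc5b. Scgb3a1, though of 499 nt, stood at 1.13, and its TPM was 80.4 in the kallisto-layout table and 49.47 in the RSEM-layout table. Among all protein-coding genes with 50 or more counts the median ratio was 0.830 below 600 nt (204 genes, quartiles 0.555 and 1.05) and 1.09 at 3000 nt or more (4497 genes). Both tables gave the same order of the 9 genes by TPM.

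**Figure D4:**
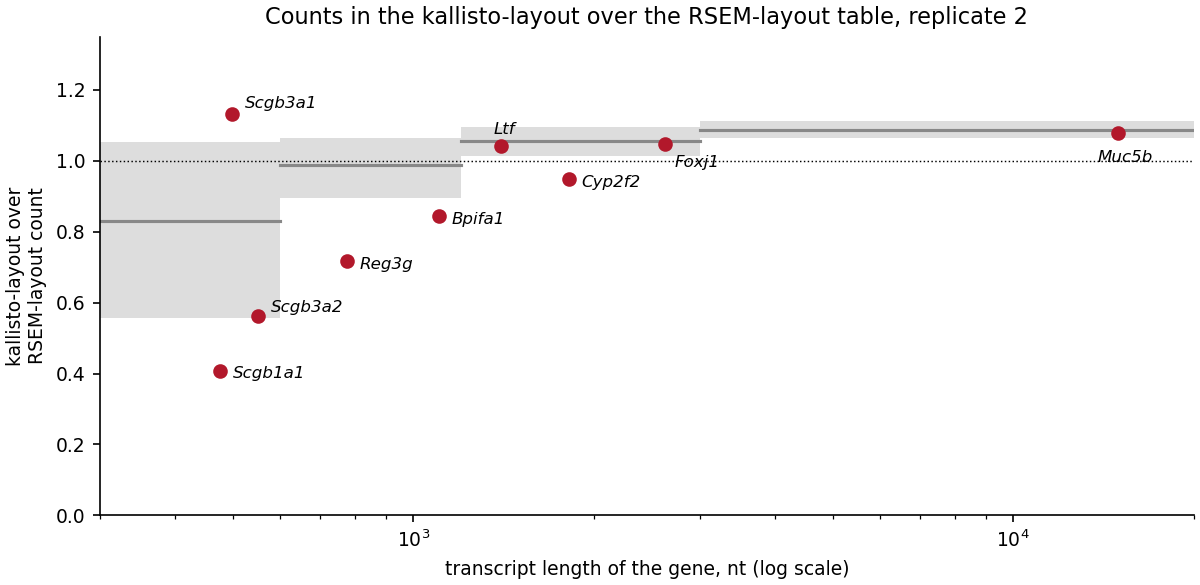
Count in the kallisto-layout table divided by the count in the RSEM-layout table for replicate 2, against transcript length in nt on a log axis; red points are the 9 genes with counts, and grey bars and bands are the median and quartiles of all protein-coding genes with 50 or more counts in a length class. Scgb1a1 and Scgb3a2, at 0.406 and 0.562, lie lowest, and Scgb3a1 lies above 1 at 1.13.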

How the data were processed

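Total RNA of the heart was measured in 2 libraries of 1 group. Expected counts and TPM per gene and transcript were deposited by the authors in tables with the column layout of RSEM, per the file headers, and estimated counts and TPM per transcript in a table with the column layout of kallisto. Per the deposited readme all refer to mm10 and GENCODE M21. The programs and their versions were not given in the sources used here. The isoform percent, and the bounds of a credibility interval that belong to the posterior TPM, were also deposited by the authors. Rows other than Ensembl genes and ERCC RNAs held 0 counts. Deposited read estimates are shared out among genes that a read fits, which matters for near-copies and short genes.

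Kallisto-layout transcripts were summed per gene. Ratios are of CPM, replicate 2 over replicate 1, and their intervals are exact conditional binomial. Counts under 3 were set to 3 for every 4-fold call and for genes at 0 in replicate 1; genes with 1 or 2 counts there are given as the plain ratio with its interval, beside the value with 3 counts. With 1 library on each side no test was made. The calculation was tested on simulated data. The members and lists were chosen with earlier results of these data known. Other genes were named from up to 3 genes of each of 22 lists with the highest TPM in replicate 2 and defining markers at 0, the 10 protein-coding genes with the largest ratio, and family members with 10 or more counts. Not all genes so eligible are named, some list genes are not reported here, and other list genes were named after their values were seen. Alternatives were TMM factors (edgeR 4.0.16, 1.029 in replicate 2 and 0.972 in replicate 1), median-ratio size factors (DESeq2 1.42.0, R 4.3.3), ERCC totals, the kallisto-layout table, posterior means and other thresholds. Python 3.11.15, pandas 2.3.3, numpy 2.4.6, scipy 1.17.1 and matplotlib 3.10.9 were used.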

Additional observations from a re-analysis of the deposited data

How the results depend on the processing

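All 8 secretory genes were detected in replicate 2 also in the kallisto-layout table, with posterior means and with minimums of 5 and 50 counts. All 8 were past the fold under TMM factors, median-ratio size factors, ERCC totals, the kallisto-layout table, posterior means, no minimum count and thresholds of 2-fold and 10-fold. Of these settings, no minimum count and the 2-fold threshold could not remove a gene. Posterior mean counts gave the same folds as the reported setting. The genes were selected on this contrast, so nothing more is read from their staying past the fold. The number detected in replicate 1 was 1, but 2 with a minimum of 5 counts, which added Scgb3a1, and 0 with a minimum of 50. The percent of all genes past the fold was 2.77 in the reported setting, 1.83 with no minimum count, 8.03 at 2-fold and 0.702 at 10-fold. The fold of Bpifa1 ranged from 1277 in the kallisto-layout table to 4520 with a floor of 1 count, that of Scgb1a1 from 45.8 to 337, of Scgb3a2 from 63.0 to 335, of Reg3g from 92.9 to 387 and of Muc5b from 81.1 to 258; these are bounds that follow the floor. Scgb3a1 ranged from 107 to 128, Cyp2f2 from 33.1 to 36.2, Ltf from 45.0 to 143 and Foxj1 from 19.6 to 31.1. The direction did not change in any of these. On the log2(TPM + pseudocount) scale a pseudocount of 1 in place of 0.1 lowered all 9 ratios. No paired analysis was possible because there is 1 group; without either replicate no ratio exists. Most of the genes were under 3 counts in replicate 1, which leaves their ratios as bounds or with wide intervals. Total counts were similar, at 36926429 in replicate 2 and 35897521 in replicate 1. With 1 library on each side the spread between animals is unknown.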
